A study of Mus musculus with 10 samples.

Results

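Cholesterol handling by mouse alveolar macrophages was followed through 33 genes, chosen by symbol for synthesis, SREBP control, uptake and lysosomal export, esterification, and LXR-driven efflux. The expression table held 30 of them among 26173 genes, and the other 3 were not analysed here. Of the 30, 24 reached 20 FPKM (fragments per kilobase of transcript, scaled to library depth) in the mean of at least 1 of 5 libraries, as did 5506 genes in all. Only those 24 were counted against the size rule given below. The other 6, Mvk, Lss, Tm7sf2, Hsd17b7, Insig2 and Abca1, stayed under that floor and are described by their values. A gene that reached the floor through 1 high library had to differ from the rest, so the counts are descriptions of these libraries.

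Cells make cholesterol from acetyl-CoA through mevalonate, squalene and lanosterol, and the genes for these enzymes are driven mainly by SREBP2, a membrane-bound transcription factor that is released when sterol falls. SCAP escorts SREBP to the Golgi for release, and the INSIG proteins hold the pair back in the endoplasmic reticulum when sterol is plentiful. Cholesterol taken up with lipoproteins or surfactant leaves the lysosome through NPC2 and NPC1, is stored as ester by SOAT1 and is exported by ABCA1 and ABCG1, whose genes are activated by the oxysterol-sensing LXR receptors. Alveolar macrophages clear pulmonary surfactant, which is rich in lipid, and ABCG1 is known for its part in keeping them free of excess cholesterol.

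Bach2 is a transcriptional repressor best known from lymphocytes, and the study compared alveolar macrophages of C57BL/6 mice, all 16 weeks old and labelled female, with and without it. A conditional model (Bach2-floxed, CD4cre) gave 3 groups: a control, and from the knockout mice a macrophage fraction whose surface markers looked normal and a fraction whose surface markers were aberrant. A germline Bach2 knockout and a wild type gave the other groups. The labels name no treatment. The CD4 promoter drives Cre in T cells, so loss of Bach2 in the macrophages of this model is not given by the design, and the labels do not state the exact alleles of the conditional control. Both knockout fractions were separated by that phenotype, so they differ from the control by the selection as well as by genotype.

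Each group had 2 columns of values, and these behaved as repeat runs of 1 library. Runs of the same group correlated at 0.996 to 0.999 on the log2(FPKM + 1) scale, against 0.845 to 0.929 between groups, and each group is therefore 1 sample, with no test and no p-value possible. A difference was called when the mean of a library's 2 runs and every choice of 1 run per library lay at least 1 log2 unit (2-fold) apart. Estimated depth was 7.59 to 9.26 M fragments per run. The floor stood far above the 0.0540 to 0.0659 FPKM that 1 fragment on a 2 kb transcript is worth. Members differed between runs of the same library by a median of 0.0420 log2 units, and the widest gaps were 0.61 for Acat2 in the wild type and 0.52 for Acat2 in the germline knockout. Bach2 was at or under 0.0571 FPKM in every library, so its level cannot check the genotypes. The Y-linked gene Eif2s3y was at 60.8 FPKM in the wild type and 39.9 in the germline knockout, and at 0.107 or less in the 3 conditional libraries, although all mice are labelled female. Sex therefore cannot be told apart from the model in the gap between the 2 controls.

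The aberrant-marker library also stood apart in cell type markers. All 11 alveolar macrophage markers were at 1 FPKM or more in the conditional control, wild type and normal-marker libraries, and 9 of 11 in the aberrant-marker and germline knockout libraries, with Marco at 0.144 and 0.372 FPKM in the aberrant-marker runs against 224 and 224 in its control. Of 9 dendritic cell markers, 7 were at 1 FPKM or more in the aberrant-marker library (summed level 2205 and 2240 FPKM) and 2 or 3 in the others (12.3 to 99.7 FPKM). Ccr7 made up most of the aberrant-marker sum, at 1542 and 1585 FPKM. In the germline knockout 2 of 6 dendritic cell markers at the floor were called higher than in the wild type, and 0 lower. These were Ccr7, at 71.4 and 71.7 FPKM, and Fscn1, at 10.4 and 8.62. Of 9 T cell markers, 8 were at 1 FPKM or more in the aberrant-marker library, including Cd3e at 17.5 and 17.9 FPKM. Elsewhere 1 of 9 was at that level, and Cd3e was listed at 0. That 1 marker, Cd2, was abundant in the macrophage libraries too, so the summed T cell level ran from 24.5 to 464 FPKM outside the aberrant-marker library and was 182 and 183 FPKM in it. Monocyte-derived macrophage markers summed to 908 to 912 FPKM (6 of 8 genes) in the aberrant-marker library, 386 to 391 (6 of 8) in the germline knockout, 14.2 to 14.5 (4 of 8) in the conditional control, and 39.2 to 45.4 (3 of 8) in the normal-marker library. None of the 8 reached 1 FPKM in the wild type. The 11 alveolar macrophage markers summed to 8858 to 8985 FPKM in the aberrant-marker library and to 15980 to 47805 in the others, but Chil3 made up most of that sum (a mean of 46574 FPKM in the germline knockout against 9278 in the wild type). By count, 9 of 11 were lower and 0 higher in the aberrant-marker library against its control, and 7 of 11 lower and 1 higher, Chil3, in the germline knockout against the wild type. Neutrophil markers summed to 9.66 to 55.5 FPKM and lung epithelial markers to 73.5 to 219 FPKM over all libraries. All 5 B cell markers and the surfactant protein genes Sftpc and Sftpb were listed at 0 throughout. The part of other cells in the differences below was not tested, and in bulk RNA fewer cells of a type and less RNA per cell cannot be told apart.

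Cholesterol genes split in both directions in the aberrant-marker macrophages, with the exporter gene Abcg1 and the ester hydrolase gene Nceh1 among the low ones. Against the conditional control, 5 of 24 members were higher (Idi1, Cyp51, Srebf2, Insig1 and Nr1h2), beside 19.8% of all genes at the floor. Lower were 9 of 24 (Acat2, Mvd, Sqle, Dhcr7, Srebf1, Mylip, Nceh1, Nr1h3 and Abcg1), beside 22.3% of all genes. The median member difference was -0.30 log2 units, and that of all genes -0.05. In the normal-marker macrophages of the conditional knockout, 3 of 24 were higher (Nsdhl, Insig1 and Nr1h3; 9.93% of all genes) and 1 was lower, Mylip (11.8% of all genes), with medians of 0.26 and -0.07. In the germline knockout against the wild type, 3 of 24 were higher (Fdps, Cyp51 and Soat1; 16.3% of all genes) and 5 lower (Sqle, Srebf1, Mylip, Nceh1 and Abcg1; 22.0% of all genes), with medians of -0.30 and -0.10. With libraries rescaled to a common median ratio, which moved the median of all genes in the germline comparison by 0.12 log2 units, 5 members were higher (Mvd and Npc2 added) and 5 lower, beside 18.8% and 19.4% of all genes. The members' shares lay near these backgrounds in most of these counts; the 9 lower members of the aberrant-marker library were a larger share than that of all genes.

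The gap between the 2 controls was wide for several members and serves as the baseline. Between wild type and conditional control, 3 of 24 members were higher in the wild type (Srebf2, Insig1 and Mylip; 9.92% of all genes) and 3 lower (Mvd, Fdps and Cyp51; 12.5% of all genes); without run 1 of the wild type, 5 were lower. The members' median absolute gap was 0.74 log2 units, against 0.52 for all genes. For each gene, the difference of a knockout library from its own control was set against the gap of that same gene between the 2 controls. The difference was the larger for 15 of 24 members in the aberrant-marker library (64.5% of all genes). It was the larger for 9 in the normal-marker library (48.1%) and for 14 in the germline knockout (62.9%). The 2-fold rule was then asked against both controls at once. The aberrant-marker library lay above both for 3 members (Idi1, Cyp51 and Srebf2; 13.8% of all genes) and below both for 7 (Sqle, Dhcr7, Srebf1, Mylip, Nceh1, Nr1h3 and Abcg1; 16.4%). The germline knockout lay above both for Soat1 alone (8.88% of all genes) and below both for 4 (Sqle, Mylip, Nceh1 and Abcg1; 14.6%). The rescaling put 2 above both, for which the share of all genes is not given. The normal-marker library lay above both for Nsdhl (4.52% of all genes) and below both for Mylip (6.10%).

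**Figure D1:**
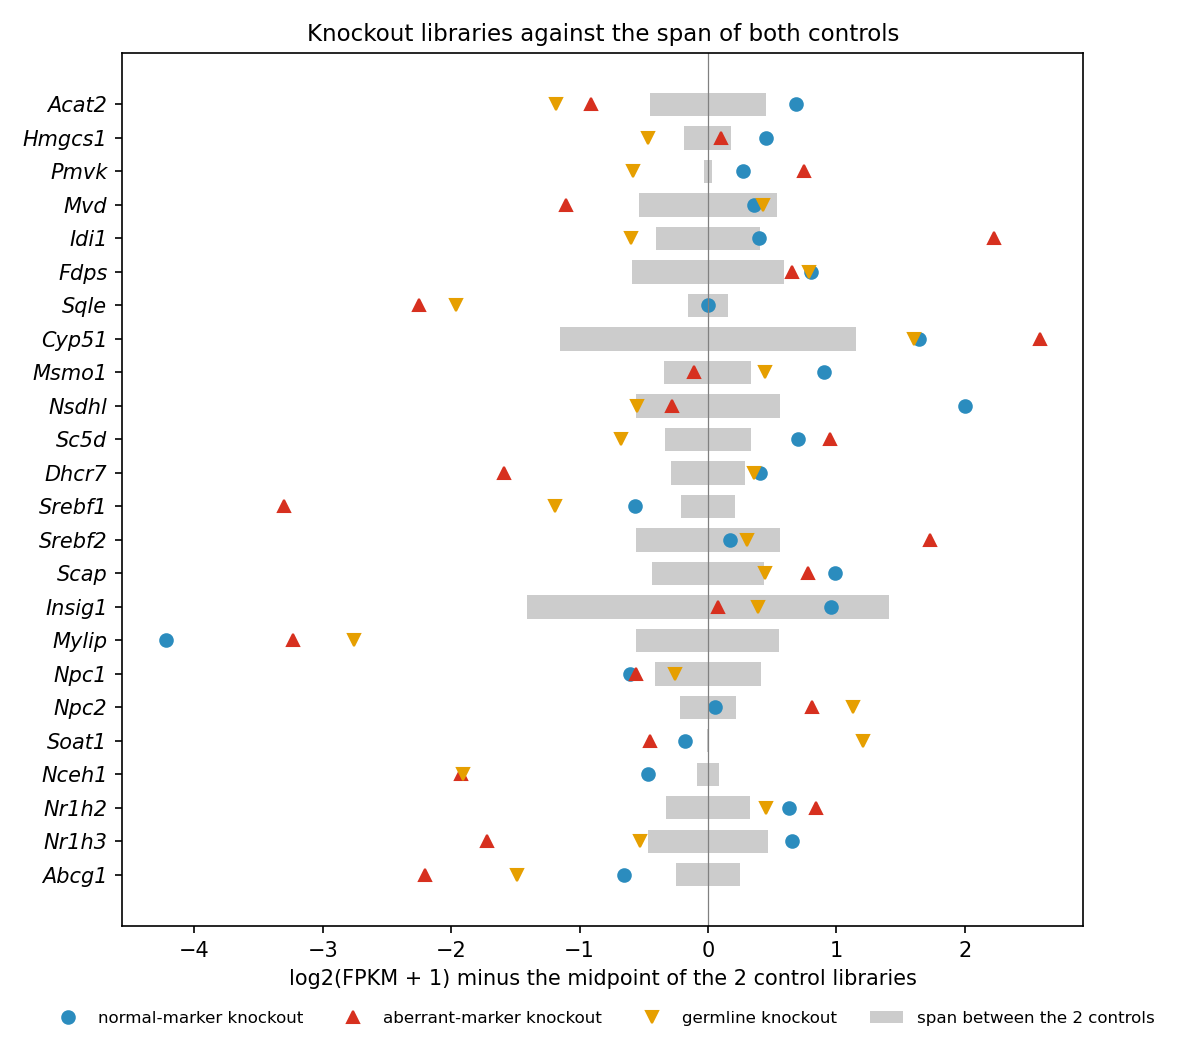
Mean log2(FPKM + 1) of each knockout library minus the midpoint of the 2 control libraries, for the 24 members at the floor in pathway order; the grey bar spans the 2 controls and each marker is the mean of 2 runs of 1 library. Mylip lay left of the bar in all 3 knockout libraries, and Sqle, Nceh1 and Abcg1 lay far left of it in the aberrant-marker and germline knockout libraries, while the bars of Cyp51 and Insig1 were wide.

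Enzymes of synthesis were called in both directions in the aberrant-marker and germline comparisons. Of 12 at the floor, 2 were higher and 4 lower in the aberrant-marker library against its control, beside 19.8% and 22.3% of all genes, with a median of -0.20 log2 units. In the germline knockout 2 were higher and 1 lower, beside 16.3% and 22.0% of all genes, with a median of -0.10. Calls in 2 other comparisons went 1 way. In the normal-marker library 1 was higher and 0 lower (9.93% and 11.8% of all genes), with a median of 0.31, and in the wild type against the conditional control 0 were higher and 3 lower (9.92% and 12.5%), with a median of -0.74. The lowest ratio of these 12 in the aberrant-marker and germline comparisons was that of Sqle, squalene epoxidase, which adds oxygen to squalene. Sqle was at 29.8 and 28.0 FPKM in the 2 runs of the conditional control, 36.1 and 36.1 in the wild type, 33.7 and 31.0 in the normal-marker library, 6.43 and 5.57 in the aberrant-marker library and 7.09 and 8.00 in the germline knockout. The aberrant-marker and germline knockout runs were the low ones. The ratio of mean FPKM was 4.82-fold lower in the aberrant-marker library than in its control and 4.79-fold lower in the germline knockout than in the wild type, with log2 differences of -2.10 and -2.12.

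Cyp51, the lanosterol demethylase 2 steps further on, went the other way. It was at 20.9 and 21.2 FPKM for the conditional control, 30.2 and 29.9 in the normal-marker, 59.5 and 57.6 in the aberrant-marker, 3.60 and 3.33 in the wild type and 28.1 and 30.3 in the germline knockout runs. The aberrant-marker level was 2.78-fold its control (log2 difference 1.43). The germline knockout was 8.43-fold the wild type (log2 difference 2.76), but the wild type was itself the low library, 6.08-fold under the conditional control, and the germline knockout runs lay above that control by less than 2-fold. Lss, which closes the sterol ring between these enzymes, stayed under the floor, with 6.74 and 6.00 FPKM in the normal-marker runs, 0.710 and 0.820 in the conditional control and 0.571 and 0.535 in the germline knockout.

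The early, mevalonate steps were as uneven. Idi1, the isomerase that makes dimethylallyl diphosphate, was at 42.5 and 40.9 FPKM for the conditional control, 41.6 and 41.3 in the normal-marker and 148 and 151 in the aberrant-marker runs. It was at 23.3 and 23.4 in the wild type and 19.9 and 20.7 in the germline knockout. Only the aberrant-marker runs stood apart, 3.60-fold above their control (log2 difference 1.82), and the difference in the germline knockout was -0.19. Mvd, mevalonate diphosphate decarboxylase, the step just before Idi1, was at 39.0 and 39.6 FPKM in the same aberrant-marker runs against 124 and 126 in the conditional control and 116 and 105 in the normal-marker runs. Its germline knockout runs were at 117 and 115, about the level of the conditional control, and the low group there was the wild type at 59.3 and 58.8. The 2 controls thus bracketed Mvd by 2.12-fold, and the aberrant-marker level did not lie 2-fold under both.

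Fdps, farnesyl diphosphate synthase, which feeds both sterols and protein prenylation, was among the most abundant members. Its runs were at 169.6 and 168 FPKM for the conditional control, 192 and 199 in the normal-marker, 178 and 173 in the aberrant-marker, 191 and 195 in germline knockout and 71.2 and 75.8 in wild type runs. All but the wild type lay close together, so the 2.63-fold higher level in the germline knockout came with a wild type that was 2.30-fold under the conditional control. Acat2, the thiolase that starts the pathway, was at 24.2 and 23.0 FPKM for the conditional control, 28.2 and 27.7 in the normal-marker and 8.93 and 8.18 in the aberrant-marker runs (log2 difference -1.36 against the control). The wild type runs, 14.9 and 9.43, and the germline knockout runs, 5.48 and 8.32, were also low and differed between runs, and that comparison was not called. Acat2 and Idi1 have close paralogs, between which short fragments may have been shared.

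Nsdhl, a sterol dehydrogenase of the C4-demethylation complex, was the 1 member at the floor that the normal-marker library held 2-fold above both controls. It was at 36.0 and 36.8 FPKM there, against 12.0 and 13.4 in the conditional control, 6.66 and 6.72 in the aberrant-marker, 5.62 and 5.03 in the wild type and 5.18 and 5.49 in the germline knockout runs. The normal-marker level was 2.86-fold its control and 5.44-fold the aberrant-marker level. Msmo1, the methyl oxidase of the same complex, ran from 52.0 (wild type) to 125 FPKM (normal-marker) in library means and was called in none of the comparisons. Its partner Hsd17b7, under the floor, ran from 0.392 in the wild type to 8.14 in the germline knockout. Dhcr7, which completes cholesterol by reducing 7-dehydrocholesterol, was at 4.99 and 5.13 FPKM in the aberrant-marker runs and between 13.4 and 23.9 in the 8 others, 2.76-fold lower than in the conditional control.

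The remaining enzymes were not called or lay under the floor. Hmgcs1, which makes HMG-CoA, ran from 30.05 FPKM in the germline knockout to 57.7 in the normal-marker library. Pmvk, phosphomevalonate kinase, ran from 21.0 in the germline knockout to 54.3 in the aberrant-marker library, and Sc5d, sterol C5-desaturase, from 10.8 to 35.4 in the same libraries. None of these 3 was called. Mvk, mevalonate kinase, was at 13.2 and 14.8 FPKM for the conditional control and 2.10 and 1.12 in the wild type. Tm7sf2, a sterol reductase, was at 15.0 and 11.1 FPKM for the conditional control and 12.8 and 15.7 in the normal-marker runs, 0.0982 and 0.202 in the aberrant-marker runs, 4.93 and 4.501 in the germline knockout, and listed at 0 in 1 of 2 wild type runs. Tm7sf2 shares 9 bases with its neighbour Vps51.

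Summed over the 16 enzymes, FPKM was highest in the normal-marker library, at 789 and 780.0 in its runs. The aberrant-marker runs summed to 669 and 665, the conditional control to 650.1 and 637, the germline knockout to 569 and 574, and the wild type to 388 and 382. The widest step between neighbouring libraries lay just above the wild type. Abundant genes weigh most in such sums, so their order need not hold for most enzymes. Mean Idi1 was 150 FPKM in the aberrant-marker library and 41.7 in the conditional control. Mean Fdps was 73.5 in the wild type and 169 in the conditional control, and mean Mvd 59.0 and 125. Gene by gene, the normal-marker library was the highest of 5 for 6 of 12 enzymes at the floor and for 8 of 24 members, beside 13.8% of all genes at the floor. The wild type was the lowest of 5 for 4 of 12 enzymes and 5 of 24 members, beside 17.9% of all genes. The germline knockout was the lowest for 5 of 12 enzymes and 5 of 24 members, and its share of all genes was not counted. The aberrant-marker library was the lowest for 3 of 12 enzymes and 8 of 24 members, beside 26.0% of all genes.

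**Figure D2:**
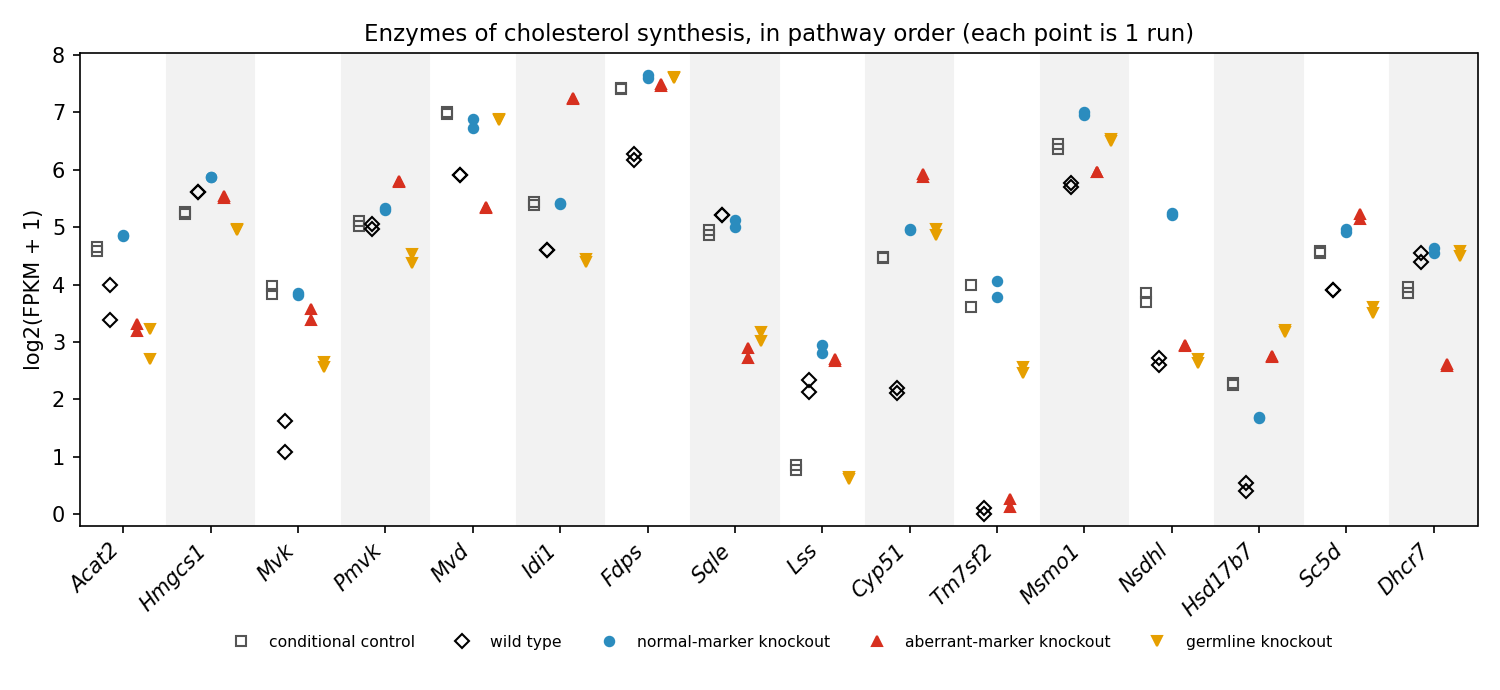
Level of the 16 synthesis enzymes in pathway order as log2(FPKM + 1), each point 1 run and each symbol 1 library. The 2 runs of a library nearly coincide, Sqle is low in the aberrant-marker and germline knockout runs, Idi1 and Cyp51 are highest in the aberrant-marker runs, and the wild type lies lowest for Mvk, Fdps, Cyp51 and Msmo1.

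Among the SREBP genes, the 2 transcription factors differed in opposite directions in the aberrant-marker macrophages. Srebf1, whose SREBP1 proteins favour fatty acid genes, was at 36.6 and 37.4 FPKM for the conditional control, 28.7 and 28.7 in the normal-marker, 3.20 and 3.71 in the aberrant-marker, 49.9 and 49.8 in the wild type and 19.1 and 17.4 in the germline knockout runs. Srebf2, whose product favours sterol genes, was at 51.5 and 54.1 FPKM in the aberrant-marker runs, against 10.2 and 9.78 in the conditional control, 17.7 and 16.8 in the normal-marker, 23.3 and 22.4 in the wild type and 18.7 and 19.3 in the germline knockout runs. Srebf1 was thus lowest and Srebf2 highest in the aberrant-marker runs. Against the conditional control, the ratio of means was 10.7-fold lower for Srebf1 and 5.28-fold higher for Srebf2. In the germline knockout Srebf1 was 2.74-fold under the wild type and Srebf2 differed by -0.25 log2 units. Srebf1 shares 114 bases with the neighbouring gene Rai1, and its 4 transcripts traded values between runs, so their sum is given. With the highest transcript alone, the differences were -2.76 in the aberrant-marker library and -0.83 in the germline knockout, which ends the second call. For Srebf2 the highest transcript gave 1.81 in the aberrant-marker library, no longer 2-fold above both controls, and 0.83 in the wild type against the conditional control, where its call ended too.

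Insig1, a sterol-regulated brake on SREBP release, had the widest gap between controls of the 24 members. Its runs were at 5.10 and 5.60 FPKM for the conditional control, 44.5 and 43.5 in the wild type, 31.8 and 32.0 in the normal-marker, 18.0 and 15.8 in the aberrant-marker and 21.3 and 20.9 in germline knockout runs. The conditional control was the low library, so both fractions of the conditional knockout lay above it (log2 differences of 2.37 and 1.49), and all 3 knockout libraries lay between the 2 controls. Insig2, its relative, stayed under the floor, from 2.99 FPKM in the normal-marker library to 10.96 in the germline knockout. Scap ran from 7.42 in the wild type to 21.6 in the normal-marker library and was not called.

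Promoter sequences bear on which of these genes carry the letters that SREBP and LXR are known to bind. RefSeq promoter windows on build GRCm38.p6, the 250 bases before each annotated start, were found for 26 of the 30 members, 35 windows in all. The sterol element searched, TCACNCCAC on either strand, was in 1 member window, that of Hmgcs1, and in 1.05% of 32851 windows of all genes. The LXR-type element searched was 2 copies of GGTNA with 5 bases between them, on either strand, and it was in 2 member windows, those of Abca1 and of 1 listed start of Srebf1, and in 0.621% of all windows. The 3 windows that hold a match are printed on the strand of the gene, with the match in capitals, since Hmgcs1 is a synthesis gene and Srebf1 and Abca1 are known LXR targets. The Hmgcs1 window is chr13:119690101-119690350 on the plus strand, with the match 137 to 129 bases before the start. The Srebf1 window is chr11:60210472-60210721 on the minus strand, with the match 182 to 168 bases before the start. The Abca1 window is chr4:53159896-53160145 on the minus strand, with the match 67 to 53 bases before the start.
Hmgcs1: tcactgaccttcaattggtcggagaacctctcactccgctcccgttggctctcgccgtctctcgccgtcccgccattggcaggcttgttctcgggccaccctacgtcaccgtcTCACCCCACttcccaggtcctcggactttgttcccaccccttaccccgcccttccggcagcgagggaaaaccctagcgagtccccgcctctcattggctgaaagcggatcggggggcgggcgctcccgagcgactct
Srebf1: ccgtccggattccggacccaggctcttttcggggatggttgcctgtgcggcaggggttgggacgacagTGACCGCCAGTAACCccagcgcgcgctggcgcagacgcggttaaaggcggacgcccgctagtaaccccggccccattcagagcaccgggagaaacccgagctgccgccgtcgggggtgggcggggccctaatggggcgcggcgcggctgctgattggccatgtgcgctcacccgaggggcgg
Abca1: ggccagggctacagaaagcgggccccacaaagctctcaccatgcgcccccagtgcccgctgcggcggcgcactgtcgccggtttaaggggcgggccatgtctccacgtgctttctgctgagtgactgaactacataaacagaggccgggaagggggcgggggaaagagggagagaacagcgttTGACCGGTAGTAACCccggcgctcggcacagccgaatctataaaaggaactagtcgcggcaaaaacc
Both LXR-type matches lie on the opposite strand, so that the printed strand reads TNACC. Of the genes with these matches, Srebf1 and Abca1 were lowest in the aberrant-marker library and Hmgcs1 was called in no comparison. A match is a description of letters, and binding was not measured.

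Uptake and lysosomal export held the 1 member, of the 24 at the floor, that was called lower in all 3 knockout libraries against their controls. Genes outside the members shared this pattern, among them the markers Siglec5, Krt79, Epcam and Bpifa1, and its share of all genes was not counted. Mylip, an LXR-activated ubiquitin ligase that marks lipoprotein receptors for breakdown, was at 12.8 and 13.5 FPKM for the conditional control and 29.5 and 29.8 in the wild type. It was at 0.114 and 0.118 in the normal-marker, 1.29 and 1.15 in the aberrant-marker runs and 2.03 and 2.12 in those of the germline knockout. No knockout run came near a control run, although the controls themselves were 2.25-fold apart. The log2 differences were -3.67 and -2.68 against the conditional control, which both comparisons share, and -3.32 in the germline knockout. Among the 24 at the floor, Mylip was the 1 member that the normal-marker library had 2-fold below both controls. Several of these values lie near or under the 1 FPKM added before the log, and with 0.1 added the differences were -5.94, -3.33 and -3.77. Of genes with a mean of 1 to 3 FPKM over runs of 2 groups, 34.8 to 49.2% were at 0 in 1 of 2. Between runs of the same group it was 0.195 to 0.758%, so agreement between runs does not measure such loss.

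The lysosomal exporters did not follow Mylip. Npc2, the soluble carrier that takes cholesterol from lysosomal membranes, was at 167 and 162 FPKM for the conditional control, 199.9 and 197 in the normal-marker, 221 and 224 in the wild type, 339 and 335 in the aberrant-marker and 420.5 and 418 in germline knockout runs. Its aberrant-marker and germline knockout levels were the highest, with log2 differences of 1.03 and 0.91 against their controls, of which neither passed in every choice of runs. With the rescaled libraries Npc2 passed in both. Npc1, the membrane protein that receives the cholesterol, ran from 31.2 FPKM in the normal-marker library to 64.3 in the wild type and was not called. By whole-gene coordinates, introns included, Npc1 overlaps Rmc1 over 8982 bases. The part of this in exons was not counted, and whether any signal is shared was not tested.

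Storage as ester was the role in which the germline knockout had 1 gene above and 1 below both controls. Soat1, which esterifies cholesterol for lipid droplets, was at 189 and 189 FPKM in the germline knockout, against 81.8 and 79.4 in the wild type, 80.9 and 82.3 in the conditional control, 73.2 and 70.1 in the normal-marker and 58.9 and 59.5 in the aberrant-marker runs. The controls were nearly equal (log2 difference -0.02), and the germline knockout stood 2.34-fold above the wild type. Nceh1, a neutral cholesterol ester hydrolase, was at 147 and 151 FPKM for the conditional control, 168 and 169.9 in the wild type and 115 and 114 in the normal-marker runs. It was at 41.6 and 40.6 in the aberrant-marker runs and 42.4 and 41.0 in those of the germline knockout. These 2 libraries met at nearly the same low level, 3.63-fold and 4.05-fold under their own controls.

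Of the exporter genes, Abcg1 was low in the same 2 libraries and Abca1 in all 3 knockout libraries. Abcg1, which exports cholesterol to high-density lipoprotein, was at 165 and 166 FPKM for the conditional control, 235 and 235 in the wild type, 125 and 125 in the normal-marker, 41.9 and 42.2 in the aberrant-marker and 68.7 and 70.6 in germline knockout runs. The wild type was highest and the aberrant-marker library lowest. The ratio of means was 3.94-fold lower in the aberrant-marker library than in the conditional control, and 3.38-fold lower in the germline knockout than in the wild type. The normal-marker library was not called for Abcg1 (log2 difference -0.40). Abca1, which loads cholesterol onto lipid-poor apolipoprotein, was far lower throughout and under the floor. Its runs were at 6.60 and 6.56 FPKM for the conditional control, 13.6 and 12.9 in the wild type, 2.26 and 2.16 in the normal-marker, 0.109 and 0.0869 in the aberrant-marker and 2.31 and 2.33 in germline knockout runs, so the 2 controls were the highest libraries and all knockout runs lay under them.

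The LXR receptors differed from each other. Nr1h3, which encodes LXR-alpha, was at 51.2 and 49.7 FPKM for the conditional control, 109.8 and 112 in the normal-marker, 22.8 and 18.5 in the aberrant-marker, 97.5 and 98.1 in the wild type and 47.0 and 49.5 in the germline knockout runs. It was 2.45-fold lower in the aberrant-marker library than in the conditional control and 2.20-fold higher in the normal-marker library, so the 2 fractions of the conditional knockout lay on either side of their control, 5.38-fold apart. The germline knockout was at the level of the conditional control, and its difference from the wild type, -1.004, did not pass in every choice of runs. Nr1h2, which encodes LXR-beta, was lowest in the conditional control at 42.5 and 43.7 FPKM and highest in the aberrant-marker library at 95.0 and 102, with 82.3 and 87.7 in the normal-marker, 69.7 and 67.6 in the wild type and 75.9 and 73.6 in the germline knockout runs. Nr1h3 shares 18 bases with its neighbour Acp2. With its highest transcript alone, neither its lower call in the aberrant-marker library nor its higher call in the normal-marker library passed in every choice of runs.

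**Figure D3:**
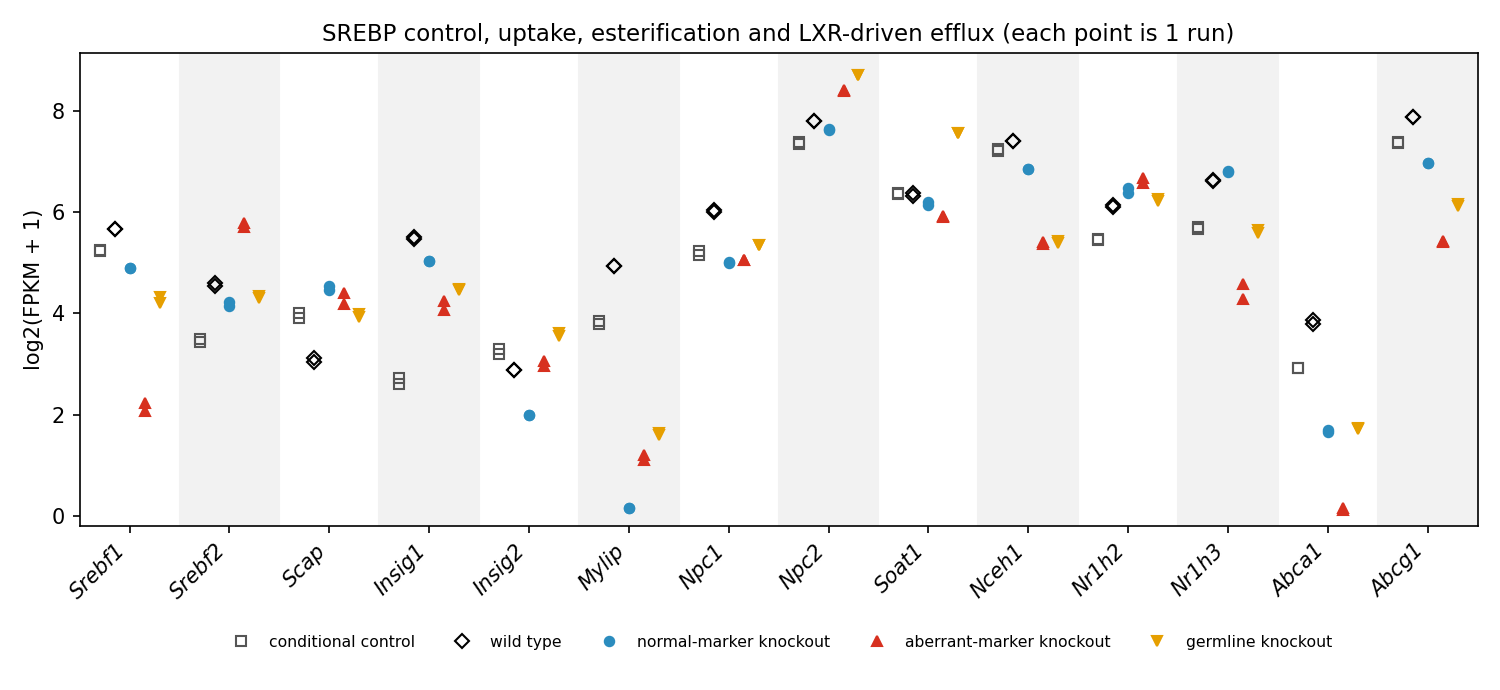
Level of the 14 other members as log2(FPKM + 1), each point 1 run and each symbol 1 library. Open symbols are the 2 controls; Mylip and Abca1 lie under both controls in all 3 knockout libraries, Nceh1 and Abcg1 are lowest in the aberrant-marker and germline knockout runs, and Srebf1 and Srebf2 lie at opposite ends in the aberrant-marker runs.

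The 2 fractions from the conditional knockout mice can be set against each other directly, although this comparison shares the aberrant-marker library with the one above. In the aberrant-marker library 2 of 24 members were higher (Idi1 and Srebf2; 21.4% of all genes) and 9 lower (Acat2, Mvd, Sqle, Nsdhl, Dhcr7, Srebf1, Nceh1, Nr1h3 and Abcg1; 21.2% of all genes). The median member difference was -0.31 log2 units, against 0.03 for all genes, and that of the 12 enzymes was -0.68. Nsdhl, Dhcr7 and Sqle had ratios of 5.44, 4.59 and 5.39-fold.

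The aberrant-marker comparison and the germline comparison share no library. Called lower in both were Sqle, Srebf1, Mylip, Nceh1 and Abcg1, 5 of 24 members, beside 9.43% of all genes. They were 5 of the 9 members lower in the first and 5 of the 5 lower in the second. Of all genes, those lower in both were 519 of the 1229 lower in the first and of the 1209 lower in the second. With the highest transcript alone, Srebf1 left the second list, and 4 were lower in both. Called higher in both was Cyp51, 1 of 24 members, beside 6.77% of all genes. It was 1 of the 5 members higher in the first and 1 of the 3 higher in the second. Of all genes, those higher in both were 373 of the 1091 higher in the first and of the 897 higher in the second. With rescaled libraries 2 members were higher in both, Cyp51 and Npc2, and the share of all genes is not given for that count. Of the 11 alveolar macrophage markers, 7 were also lower in both comparisons (Marco, Siglec5, Car4, Krt79, Krt19, Ear1 and Ear2) and 4 were not (Chil3, Itgax, Pparg and Fabp4). In these 2 libraries C1qb, a marker of monocyte-derived macrophages, was at its highest (373 and 377 FPKM in the first, 153 and 156 in the other), and the part of this in the shared differences was not tested.

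**Figure D4:**
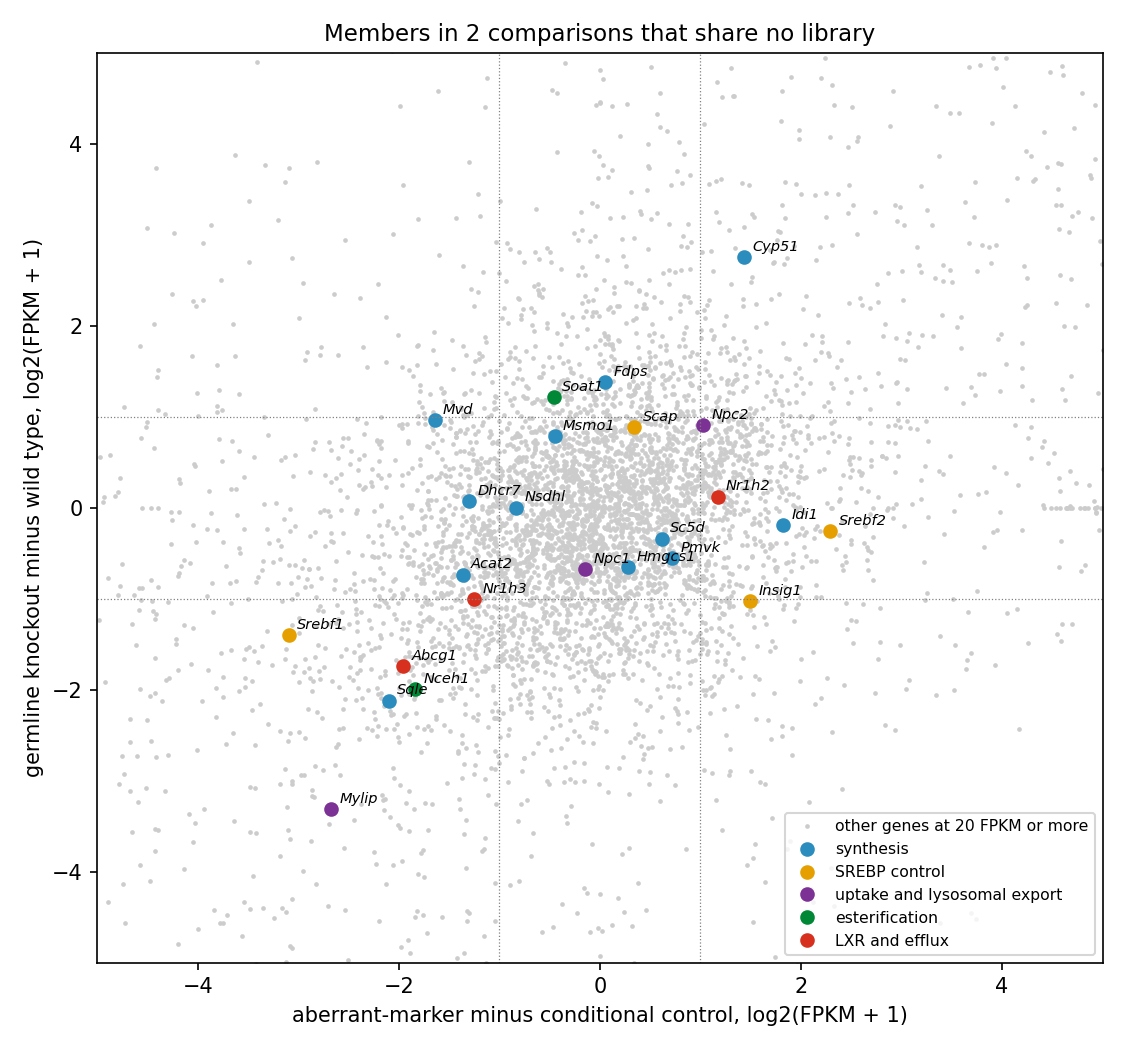
Difference in log2(FPKM + 1) of the aberrant-marker library from the conditional control (horizontal) against that of the germline knockout from the wild type (vertical), for all genes at 20 FPKM or more (grey) and the 24 members (coloured by role); dotted lines mark 1 log2 unit. Sqle, Nceh1, Abcg1, Srebf1 and Mylip lie lower left and Cyp51 upper right, while Mvd, Idi1, Srebf2, Insig1 and Soat1 have opposite signs on the axes.

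Other genes of the pathway, from 4 lists of 34 genes in the table of which 23 reached the floor, filled in the same roles. Against the conditional control, 4 of these 23 were higher and 9 lower in the aberrant-marker library, beside 19.8% and 22.3% of all genes, and the normal-marker library had 3 higher and 1 lower, beside 9.93% and 11.8%. In the germline knockout 6 were higher and 5 lower than in the wild type, beside 16.3% and 22.0%. Their medians were -0.94, -0.02 and -0.10 log2 units, and between the controls 5 were higher and 1 lower in the wild type, beside 9.92% and 12.5%.

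Of 6 lipoprotein receptor and lipase genes, 4 were lower in the aberrant-marker library (Scarb1, Lrp1, Olr1 and Lipa; 22.3% of all genes) and 0 were called higher (19.8%). The other 2 had differences above 0, Msr1 of 1.07 and Cd36 of 0.53 log2 units. Scarb1, a receptor for high-density lipoprotein, was at 98.5 and 96.1 FPKM for the conditional control, 69.8 and 66.2 in the normal-marker, 7.14 and 7.90 in the aberrant-marker, 114 and 115 in the wild type and 26.9 and 29.9 in the germline knockout runs. Scarb1 was therefore low in the same 2 libraries as Abcg1. Lipa, which frees cholesterol from lipoprotein esters in the lysosome, was at 63.5 and 64.3 FPKM in the aberrant-marker runs against 373 and 369 in the control, and at 321 and 317 in the germline knockout against 295 and 295 in the wild type. The scavenger receptor gene Cd36 went the other way in the germline knockout, at 501 and 503 FPKM against 187 and 189. Msr1, another scavenger receptor gene, was called higher in the normal-marker library (34.8 and 35.2 against 13.2 and 14.2 FPKM) and in the germline knockout (26.6 and 26.6 against 7.29 and 7.67). Of the rest, Lrp1 was at 20.1 and 20.1 FPKM in the aberrant-marker runs against 61.4 and 62.8 in the control, and the oxidised lipoprotein receptor gene Olr1 at 2.81 and 1.96 against 57.9 and 58.8.

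Of 7 other LXR-related genes, 1 was higher and 2 lower in the aberrant-marker library (19.8% and 22.3% of all genes), and 1 higher and 3 lower in the germline knockout (16.3% and 22.0%). Lpcat3, a lysophospholipid acyltransferase and LXR target, was at 88.8 and 92.2 FPKM for the conditional control, 49.0 and 50.6 in the normal-marker, 19.6 and 23.9 in the aberrant-marker, 91.3 and 95.9 in the wild type and 21.2 and 30.5 in the germline knockout runs. Rxra, the partner receptor of LXR, was at 2.16 and 1.60 FPKM in the aberrant-marker runs against 56.2 and 55.0 in the conditional control, and at 22.8 and 22.3 in the germline knockout against 49.0 and 45.8. Pltp, the phospholipid transfer protein gene, was at 40.0 and 30.7 FPKM in the germline knockout against 169 and 191 in the wild type, and at 31.9 and 27.1 in the normal-marker runs against 82.9 and 77.2. LXR-related genes were not all low with Abcg1: Arl4c was at 37.3 and 35.9 FPKM in the aberrant-marker runs against 0.547 and 0.589 in the control. Ch25h, which makes 25-hydroxycholesterol, was at 340.1 and 327 FPKM in the germline knockout and 252 and 245 in the normal-marker runs, against 101 and 92.7 in the wild type and 44.0 and 39.8 in the conditional control.

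Among 7 other sterol pathway genes at the floor, 1 was higher (Erlin1) and 2 lower (Cyb5r3 and Por) in the aberrant-marker library, beside 19.8% and 22.3% of all genes. In the germline knockout 2 were higher (Mbtps1 and Erlin2) and 0 lower, beside 16.3% and 22.0%. Erlin1 was at 22.8 and 21.2 FPKM in the aberrant-marker runs against 4.89 and 4.70 in the control, and Cyb5r3, an electron donor for sterol oxidation, at 77.1 and 81.8 against 312 and 321. Mbtps1, the protease that makes the initial cut in SREBP, was at 39.1 and 39.0 FPKM in the germline knockout against 15.1 and 17.9 in the wild type, and Erlin2 at 26.1 and 25.1 against 9.00 and 8.66. Tmem97 was called between the knockout fractions, at 14.4 and 14.7 FPKM in the aberrant-marker and 57.3 and 58.4 in the normal-marker runs. Por, the electron donor of Cyp51 and Sqle, was at 29.5 and 30.03 FPKM in the aberrant-marker runs, 75.7 and 76.0 in the conditional control and 23.7 and 21.6 in the wild type. Of 3 fatty acid genes driven by SREBP that reached the floor, Acly, which supplies cytosolic acetyl-CoA, was lower in the aberrant-marker library (27.3 and 27.7 against 61.6 and 61.9 FPKM) and in the germline knockout (20.7 and 20.2 against 74.3 and 72.8). Scd1, a fatty acid desaturase, was at 39.8 and 41.4 FPKM in the aberrant-marker runs against 0.519 and 0.623 in the control, so it was high in the library in which Srebf1 was lowest. Scd1 was called higher in the other knockout libraries too. It was at 14.8 and 14.4 FPKM in the normal-marker runs, and at 2.67 and 3.25 in the germline knockout against almost none in the wild type. Its relative Scd2 was at 34.7 and 36.5 FPKM in the aberrant-marker runs against 5.99 and 5.53 in the conditional control, with 28.3 and 30.8 in the wild type and 19.2 and 21.2 in the germline knockout.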

How the data were processed

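RNA of alveolar macrophages was profiled after amplification from 100 pg of total RNA by 18 PCR cycles, per the labels' protocols. The deposited values are FPKM per RefSeq transcript that the authors made with Bowtie 1.1.2 and eXpress 1.5.1, per the submitters' processing notes; the genome build is not given in the sources used here. Transcripts that share an Entrez gene were added up, and log2(FPKM + 1) was taken. All 10 columns were used (0 left out). A test across all genes had been planned if the 2 columns of a group varied as samples do. The median squared read difference over the read sum was 0.523 to 0.618 within groups, against 0.455 for reads drawn from 1 library and 71.3 to 105 between groups, so columns were averaged as runs of 1 library and differences were called by size alone. Depth was estimated from the steps between low FPKM values. The amplified fragments carry no molecular identifiers, so depth covers counting error only.

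The genes named are the 33 listed members, and from the other pathway lists those called in a comparison or needed beside a member. A gene of those lists is not reported here. Members, lists and markers were chosen with earlier results of these data known. Alternatives were a pseudocount of 0.1, a floor of 5 FPKM or none, a 4-fold rule, the highest transcript per gene, median ratio scaling, and each run left out. Python 3.11.15, pandas 2.3.3 and numpy 2.4.6 were used. The size rule was run on simulated data with planted 4-fold changes and little noise between runs. That simulation held no spread between mice, so it cannot measure calls that such spread would give.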

Additional observations from a re-analysis of the deposited data

Results flagged for a closer look

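Of the 24 members at the floor, 5 met a rule set on the 2 comparisons that share no library. Every choice of runs had to give opposite signs, with at least 1 of them past 2-fold. The share of all genes that meet the same rule was not counted, so no background stands beside the 5. Whether the differences between the comparisons exceed the spread between mice was not tested. For Mvd the aberrant-marker difference (-1.64 log2 units) minus the germline knockout difference (0.96) was -2.61, with a wild type that was low beside the conditional control. For Idi1 the differences were 1.82 and -0.19, 2.01 apart. For Srebf2 they were 2.29 and -0.25, 2.54 apart. For Insig1 they were 1.49 and -1.02, 2.52 apart, and its 2 controls lay further from each other than that. For Soat1 they were -0.46 and 1.22, which gives -1.67, with nearly equal controls.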

How the results depend on the processing

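Of 43 called member differences recomputed 301 times under the alternatives, 0 changed sign, 254 moved by no more than the spread between runs (1 SD) and 47 by more. With a floor of 5 FPKM, and with none, 3 members were lower in the normal-marker library than in its control, 5 were higher in the germline knockout, 6 were lower in the wild type than in the conditional control, and 2 were below both controls in the normal-marker library. The shares of all genes under those floors are not given. Under the 4-fold rule the aberrant-marker library had 1 member higher and 2 lower than its control, beside 509 and 537 of all 5506 genes at the floor. It had 0 above and 2 below both controls, beside 360 and 393 of all genes. Against the normal-marker library it had 0 higher and 4 lower, beside 511 and 504. The normal-marker library had 1 higher than its control and 0 above both, beside 190 and 87. Under that rule the germline knockout had 1 higher and 2 lower than the wild type, beside 433 and 459 of all genes. It had 0 above and 1 below both controls, beside 200 and 322. The wild type had 1 higher and 1 lower than the conditional control, beside 153 and 242. In both models 0 members were higher and 1 lower, and the count of all genes is not given there. With median ratio scaling, 5 members were higher in the germline knockout than in the wild type (Mvd and Npc2 added), with 18.8% of all genes higher and 19.4% lower, 2 lay above both controls, and 2 were higher in both models. For the last 2 counts the share of all genes is not given. Leaving out single runs, the members lower in the wild type than in the conditional control numbered 3 to 5, with 5 when wild type run 1 was left out, and of 92 such counts this was the 1 that moved by over 1.5 times. The count in both models was added after seeing the data. No paired analysis was possible because the labels give each column a number of its own. Each group is 1 library, so the spread between mice is unknown. Cell composition and genotype cannot be told apart, and sex cannot be told apart from the model.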
